A study of Mus musculus with 3 samples.

Results

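Collagen genes were examined in 3T3-L1 adipocytes, fat cells that are differentiated in culture from a cloned line of mouse embryo fibroblasts. The genes were chosen by name: a symbol made of Col, a type number, the letter a and a chain number, on probe sets that the platform annotation assigns to a single gene. This gave 42 collagen genes of 18194 genes, on 82 of the 34958 probe sets with 1 gene. Each of the 3 samples had been exposed for 2 h to glucose oxidase, which oxidises glucose and so releases hydrogen peroxide into the medium, and total RNA was measured on the mouse4302 Affymetrix array. All samples belong to a single group, so no treated-against-control change could be computed, control arrays were not analysed here, and every value below describes glucose oxidase-treated cells. The tissue label reads preadipocytes while the growth protocol describes differentiated adipocytes. Separate cultures are not stated for the replicates, and their spread may therefore be technical.

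Collagens are the main structural proteins of the extracellular matrix. Each molecule is a triple helix of alpha chains, in which glycine recurs at a fixed interval and many of the residues between are proline or hydroxyproline. Chains are hydroxylated and glycosylated in the endoplasmic reticulum, folded with the help of dedicated chaperones, secreted, trimmed and then crosslinked by lysyl oxidases. Fibrillar types form the rope-like fibrils of connective tissue, type IV forms the sheet of the basement membrane that surrounds each fat cell, and type VI forms beaded filaments that are abundant in adipose tissue. During adipocyte differentiation, cells are known to exchange a fibrillar matrix for one rich in basement membrane.

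A gene was counted as above background when at least 1 of its probe sets exceeded a log2 intensity of 7.58 in all 3 arrays. The limit came from 83 probe sets of taste, olfactory and vomeronasal receptor genes, which fat cells are not known to depend on, and was their 95th percentile. By this measure 25 of the 42 collagen genes were above background (59.5%), against 54.4% of all 18194 genes. Of the collagen probe sets, 37 of 82 were above background (45.1%), against 45.1% of all probe sets with 1 gene. The share of the family that was detected therefore lay near that of the array as a whole, and the pattern lies in which collagens were above it. All 6 measured adipocyte markers were above background, and so were 6 of 8 measured preadipocyte and fibroblast markers, so the label check showed the adipocyte markers present beside those of fibroblast-like cells. Arrays correlated with each other at r = 0.9969 to 0.9981 across probe sets, which are not independent replicates. Intensities of different probe sets depend on their probes as well as on their transcript, so an order of levels between genes is not an order of transcript amounts.

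The stretches where transcription of 4 collagen genes starts are shown because these genes encode chains of type I, type III, the common form of type IV and the classical form of type VI, forms in which every chain was above background, and because their composition differs widely. Each runs from 250 bases before to 50 bases after the annotated start, 5′ to 3′ along the gene's strand, from RefSeq on GRCm38.p6. Col1a2 lies at chr6:4505368-4505667 on the plus strand, Col3a1 at chr1:45311288-45311587 on the plus strand, Col4a2 at chr8:11312555-11312854 on the plus strand and Col6a1 at chr10:76725995-76726294 on the minus strand. Capitals mark every match, on either strand, to CCAAT, to GGGCGG, to TATAAA or to TGANTCA, and no matches overlap in these windows.
Col1a2: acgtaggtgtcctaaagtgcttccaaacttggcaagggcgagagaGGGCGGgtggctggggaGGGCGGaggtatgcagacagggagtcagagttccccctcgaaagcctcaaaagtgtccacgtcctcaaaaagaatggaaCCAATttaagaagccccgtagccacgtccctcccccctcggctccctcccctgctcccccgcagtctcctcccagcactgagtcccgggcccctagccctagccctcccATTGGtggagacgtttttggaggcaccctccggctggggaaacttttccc
Col3a1: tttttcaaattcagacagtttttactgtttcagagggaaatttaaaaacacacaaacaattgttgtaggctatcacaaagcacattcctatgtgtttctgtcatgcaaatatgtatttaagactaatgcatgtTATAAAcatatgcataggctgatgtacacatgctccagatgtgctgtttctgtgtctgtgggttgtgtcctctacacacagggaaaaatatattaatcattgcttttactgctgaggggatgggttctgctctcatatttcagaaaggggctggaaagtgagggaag
Col4a2: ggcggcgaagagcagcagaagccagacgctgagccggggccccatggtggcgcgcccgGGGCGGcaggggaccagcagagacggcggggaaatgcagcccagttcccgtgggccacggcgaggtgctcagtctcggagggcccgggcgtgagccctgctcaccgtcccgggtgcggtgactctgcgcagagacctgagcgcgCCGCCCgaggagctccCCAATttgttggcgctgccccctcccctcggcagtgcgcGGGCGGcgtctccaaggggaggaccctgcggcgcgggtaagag
Col6a1: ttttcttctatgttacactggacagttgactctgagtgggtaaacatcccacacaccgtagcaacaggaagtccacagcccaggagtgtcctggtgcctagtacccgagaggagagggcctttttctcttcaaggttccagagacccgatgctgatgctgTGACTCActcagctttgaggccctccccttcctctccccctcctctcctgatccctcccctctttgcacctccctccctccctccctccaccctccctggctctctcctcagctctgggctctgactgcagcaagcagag

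CCAAT is the core of the CCAAT box, GGGCGG is a GC box, TATAAA is a TATA box and TGANTCA is the letters of an AP-1 element. The Col1a2 window held CCAAT 2 times and GGGCGG 2 times at 61.0% G plus C, whereas the Col3a1 window held neither, 1 TATAAA and 0 CpG at 37.7% G plus C. The Col4a2 window was 73.7% G plus C with 33 CpG, 1 CCAAT and 3 GGGCGG, and the Col6a1 window held a single TGANTCA at 57.3% G plus C and 3 CpG. Over all windows the median was 52.7% G plus C and 7 CpG. Col4a2 and its neighbour Col4a1 are transcribed in opposite directions from starts only 21 bases apart, so their windows share 78 bases, and both genes were above background.

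Windows were matched for 33 of the 42 collagen genes. CCAAT occurred in those of 10 of 20 collagen genes above background and 3 of 13 not above, against 37.4% of all 32851 windows. GGGCGG occurred in 15 of 20 and 6 of 13, against 35.7% of all windows. TATAAA was found in 2 of 20 and 3 of 13, against 13.6%, and TGANTCA in 1 of 20 and 0 of 13, against 7.81%. The 33 collagen genes had 36 windows, and a gene was counted if any of its windows held the motif. The shares of all windows are per window, so the units differ. These are matches of letters and were not tested as sites. Windows were not found for Col1a1, Col2a1, Col4a3, Col5a2, Col9a3, Col12a1, Col14a1, Col22a1 and Col26a1.

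Among the fibrillar collagens, 10 of 11 genes were above background, against 54.4% of all genes and more fully than any other class with over 2 members. Of these 10, Col2a1, Col11a1 and Col11a2 lay near the limit and were lost with the 99th percentile as the limit. The type I chains are the main chains of most connective tissue fibrils, and both were far above the limit. Col1a1, the alpha 1 chain, had log2 intensities of 12.76, 12.67 and 12.81 in replicates 1, 2 and 3 (mean 12.75 ± 0.069, SD, n = 3). Col1a2, the alpha 2 chain, had 13.84, 13.77 and 13.82 (13.81 ± 0.033). Col3a1, whose product forms homotrimers that join type I in fibrils of soft tissue, had 13.93, 13.89 and 13.90 (13.91 ± 0.019). In each of these genes replicate 2 was the lowest array, and the arrays of a gene lay at most 0.135 apart and their mean at least 5.16 above the limit.

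Type V is a minor fibrillar collagen that nucleates type I fibrils and limits their width, and all 3 of its chains were above background. Col5a1 had 11.46, 11.38 and 11.41 in replicates 1, 2 and 3 (11.42 ± 0.042). Col5a2 had 12.40, 12.37 and 12.43 (12.40 ± 0.032), and here too replicate 2 was lowest. Col5a3, a chain of restricted distribution that can join the other chains in one molecule, had 10.55, 10.64 and 10.52 (10.57 ± 0.060). On the probe set with the highest mean of each gene, Col5a3 departed from the other type I, III and V genes in having its highest value in replicate 2. The other probe sets of Col5a1, also above background, were not lowest in replicate 2. Of these, 1 was highest in replicate 2 (10.176, 10.183 and 10.131) and 1 was lowest in replicate 1 (8.93, 8.96 and 9.08).

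The cartilage-type fibrillar chains lay close to the limit. Col2a1, the chain of cartilage fibrils, had 8.19 in replicate 1, 7.79 in replicate 2 and 7.78 in replicate 3 (7.92 ± 0.24), so 1 array was higher than the others by about 0.41. Col11a1 had 8.17, 7.90 and 8.11 (8.06 ± 0.14), lowest in replicate 2. Col11a2 had 7.91, 8.07 and 8.02 (8.0005 ± 0.080), lowest in replicate 1. Col11a1, Col11a2 and Col2a1 can supply the chains of type XI, but the mean of each was at most 0.48 above the limit. With the 99th percentile of the receptor probe sets, 8.05, as the limit, none of the 3 exceeded it in every array, although Col2a1 did in replicate 1, Col11a1 in replicates 1 and 3 and Col11a2 in replicate 2. Of the chondrocyte markers, 1 of 6 was above background (Sox9, a transcription factor of cartilage and other tissues). Acan, Matn1, Comp, Hapln1 and Cnmd were not, with means between 4.19 and 7.20.

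Col27a1, a fibrillar chain known from cartilage and other developing tissues, had 8.65, 8.71 and 8.68 (8.68 ± 0.0275) and stayed above background under each other limit tried. Col24a1, the fibrillar chain known from bone and cornea, was the exception in its class, at 2.91, 2.97 and 3.04 (2.98 ± 0.066). It was the collagen gene furthest below the limit, on its only probe set.

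**Figure D1:**
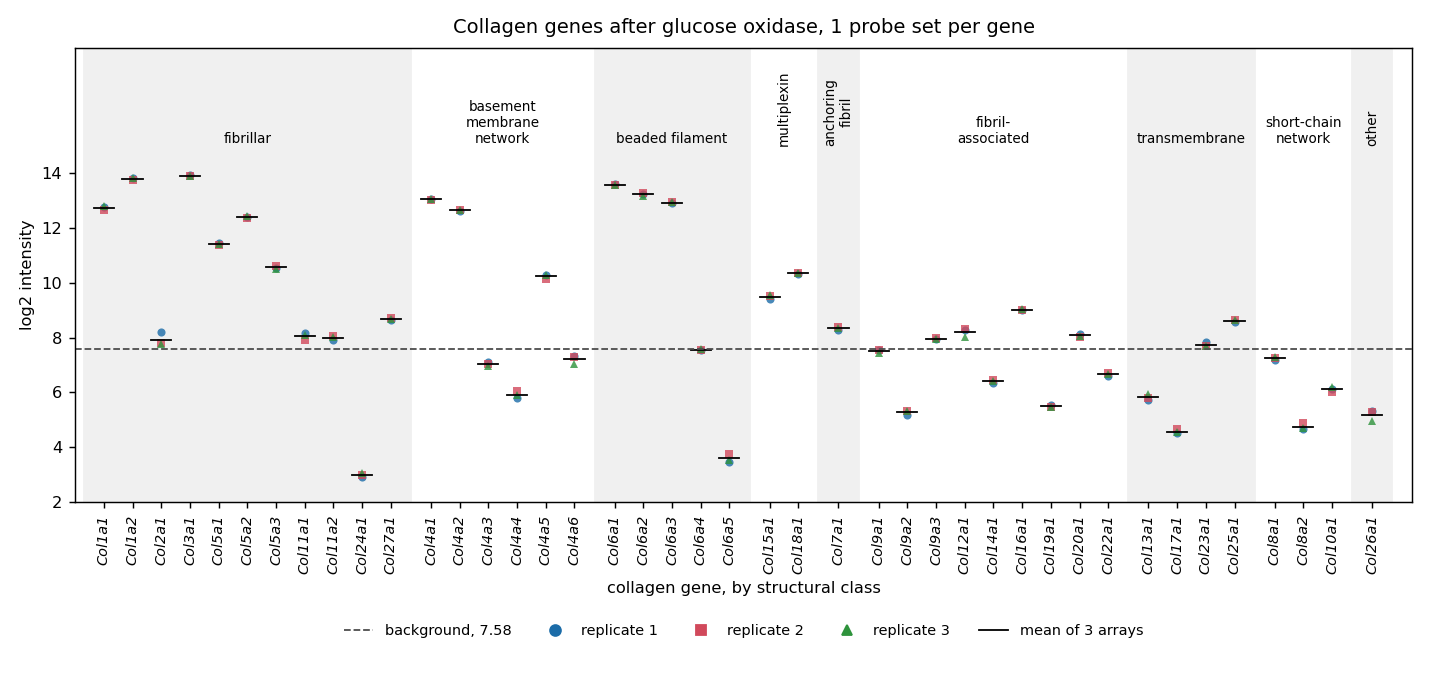
Log2 intensity of the 42 collagen genes (y axis) by structural class (x axis), on the probe set with the highest mean for each gene. Points are the 3 arrays, short bars their mean, and the dashed line the background limit of 7.58, with 10 of 11 fibrillar genes above it and 0 of 3 short-chain network genes, against 54.4% of all genes.

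The basement membrane collagens split by chain. Col4a1 and Col4a2 encode the chains of the common type IV network, and both were far above the limit. Col4a1 had 13.07, 13.04 and 13.08 in replicates 1, 2 and 3 (13.06 ± 0.020). Col4a2 had 12.62, 12.67 and 12.67 (12.65 ± 0.027), lowest in replicate 1. Col4a5 was also above background, at 10.27, 10.15 and 10.28 (10.23 ± 0.072). The Col4a5 chain assembles with those of Col4a3 and Col4a4, best known from kidney, or with that of Col4a6, known from smooth muscle and skin. None of these partners was above background, with means between 5.92 for Col4a4 and 7.22 for Col4a6 and Col4a3 at 7.04. Both Col4a5 probe sets were above background, and their array orders differed: replicate 2 was lowest on one and replicate 1 on the other.

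Type VI, which links cells to the fibrillar matrix, had its 3 classical chains above background. Col6a1 had 13.60, 13.58 and 13.59 in replicates 1, 2 and 3 (13.59 ± 0.0078), and Col6a2 had 13.26, 13.28 and 13.18 (13.24 ± 0.053). Col6a3, whose C-terminal fragment is known as endotrophin, had 12.91, 12.94 and 12.95 (12.93 ± 0.019). The lowest array differed in each of these 3 genes. The later-described chains, which can take the place of alpha 3, were not above background. Col6a4 had 7.54, 7.53 and 7.59 and was the collagen gene nearest below the limit, with 1 array on the upper side of it, and Col6a5 averaged 3.59.

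Both multiplexins, basement membrane collagens that carry sugar chains and release endostatin-like fragments, were above background. Col18a1 had 10.31, 10.37 and 10.36 (10.34 ± 0.032), and Col15a1 had 9.43, 9.52 and 9.56 (9.502 ± 0.069), each lowest in replicate 1. Col7a1, which forms the anchoring fibrils below epithelia, had 8.28, 8.37 and 8.36 (8.34 ± 0.052), again lowest in replicate 1. Epithelial markers beside it were above background in 1 of 6 cases (Epcam), against 54.4% of all genes. The Epcam probe set with the highest mean can cross-hybridise with other transcripts. Krt5 and Krt14 of the basal layer averaged 7.25 and 6.65. The part of other cells in the Col7a1 values was not tested.

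Fibril-associated collagens do not form fibrils of their own but sit on the surface of others. Of these, 4 of 9 were above background, against 54.4% of all genes. Col16a1 had 9.02, 9.001 and 9.04 (9.02 ± 0.020). Col12a1 had 8.26, 8.30 and 8.01 (8.19 ± 0.16), the replicate 3 value standing below the others. The remaining pair lay nearer the limit: Col20a1 with 8.14, 8.01 and 8.08 (8.08 ± 0.066), and Col9a3 with 7.95, 8.0005 and 7.94 (7.96 ± 0.033). Col20a1 was above background only on a probe set that can cross-hybridise with other transcripts. Col9a3 was the sole chain of type IX above background. Its partner Col9a1 had 7.53, 7.56 and 7.43, just under the limit, and Col9a2 averaged 5.27. Col14a1, Col19a1 and Col22a1 were not above background either, with means between 5.49 for Col19a1 and 6.66 for Col22a1.

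Transmembrane collagens span the plasma membrane and can shed their collagenous part. Col25a1, known from neurons and muscle innervation, had 8.57, 8.63 and 8.64 (8.61 ± 0.038), and Col23a1 had 7.82, 7.70 and 7.69 (7.74 ± 0.073), the collagen gene nearest above the limit. Col13a1, found at cell contacts, and Col17a1, of the hemidesmosomes of skin, averaged 5.81 and 4.56 and were not above background. The short-chain network collagens, which form hexagonal lattices in vessels, cornea and growth plate, were all below the limit. Col8a1 had 7.18, 7.25 and 7.30, and Col10a1 and Col8a2 averaged 6.11 and 4.75. Col26a1, placed in no class here, averaged 5.18.

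Grouped by assembly, 10 molecules made of different chains were considered, and 6 of these had every chain above background: type I, type IV of the first chain pair, both forms of type V, type VI and type XI. Another 3 had a single chain above background, Col4a5 in the other forms of type IV and Col9a3 in type IX. Type VIII had none. These counts restate the calls of single genes, which 54.4% of all genes met, and no matching share exists for assemblies. The chains of type XI all lay within 0.5 of the limit, and all were lost with the 99th percentile as the limit. The forms of type V share Col5a1 and Col5a2. Some collagen genes lie next to each other in the genome. Col3a1 and Col5a2 on chromosome 1, Col6a2 and Col6a1 on chromosome 10 and Col4a1 and Col4a2 on chromosome 8 were above background together, and Col4a4 and Col4a3, Col9a1 and Col19a1, and Col6a5 and Col6a4 were together not above it. In the pair on the X chromosome only Col4a5, and not Col4a6, was above background.

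Near the limit the call was less firm. There were 6 collagen genes above it by less than 0.5 (Col2a1, Col9a3, Col11a1, Col11a2, Col20a1 and Col23a1) and 4 below it by less than 0.5 (Col4a6, Col6a4, Col8a1 and Col9a1). Over the 25 collagen genes above background the median SD was 0.042, against 0.048 over all 9889 genes above background. An SD over 0.1 was found in 3 of the 25 collagen genes, against 8.46% of all genes above background, and these were Col2a1 (0.24), Col12a1 (0.16) and Col11a1 (0.14). The next were Col11a2 (0.080) and Col23a1 (0.073). Each of these 5 genes had a mean of at most 8.19, and 4 of them lay within 0.5 of the limit, whereas the 13 collagen genes with a mean over 10 had SDs of at most 0.072.

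Probe sets of the same gene often stood apart. Of 27 collagen genes with 2 or more probe sets, 15 had means over 1 log2 unit apart, 10 had every probe set above background, 7 had some and 10 had none. The widest gap was in Col1a2, from 4.56 on one probe set to 13.81 on another, with a further one at 12.45. The gap was 4.96 in Col9a3, 4.501 in Col5a3, 4.10 in Col25a1 and 3.48 in Col12a1, and in each of these 4 genes only 1 probe set was above background. Each of Col1a1, Col3a1, Col4a1, Col4a5, Col5a1, Col5a2, Col6a2, Col11a1, Col18a1 and Col27a1 had all its probe sets above the limit.

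**Figure D2:**
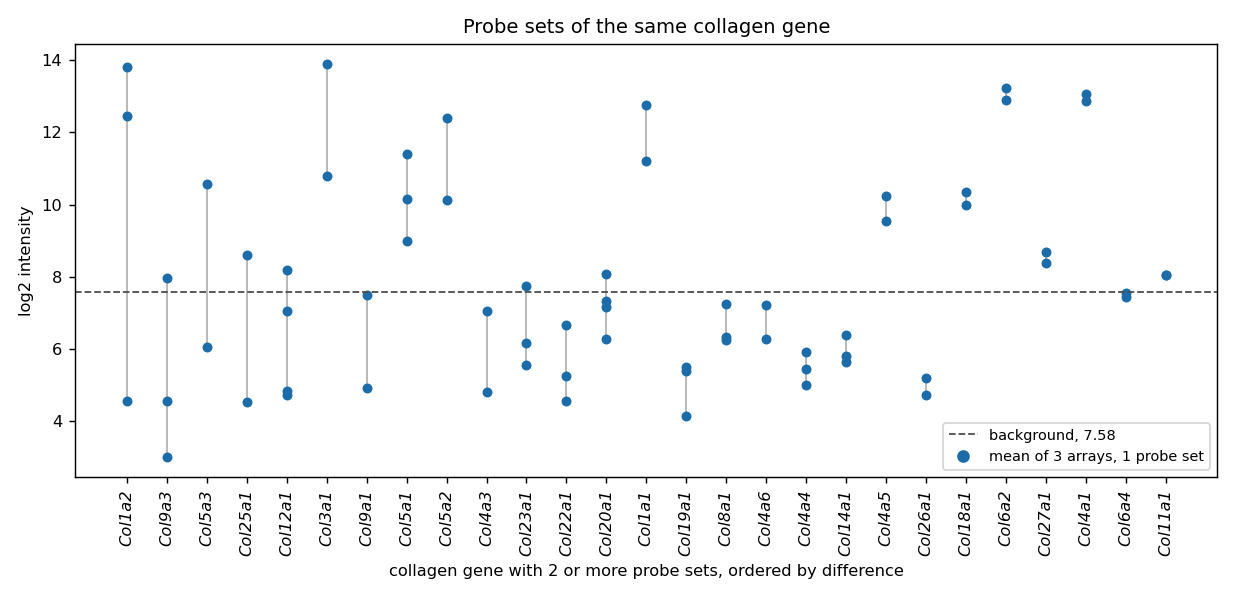
Mean log2 intensity over the 3 arrays (y axis) of each probe set of the 27 collagen genes with 2 or more probe sets (x axis, ordered by the gap between probe sets), with the background limit of 7.58 as a dashed line. Of these genes, 10 lie wholly above the line, 7 straddle it and 10 lie wholly below it.

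The array with the lowest value was not the same across the classes of collagen. This was noticed after the values were seen and has no test. Counts of genes use the probe set with the highest mean of each gene. In Col4a1, Col4a5, Col5a1 and Col27a1, other probe sets above background had another lowest array. Of the 10 fibrillar genes above background, 6 were lowest in replicate 2 (Col1a1, Col1a2, Col3a1, Col5a1, Col5a2 and Col11a1), against 24.9% of all genes above background. Of the 15 other collagen genes above background, 5 were (Col4a1, Col4a5, Col6a1, Col16a1 and Col20a1), so that the family as a whole had 11 of 25 (44.0%). Among genes with a mean over 10 it was 8 of 13 collagens, against 21.8% of all such genes. On single probe sets the counts were 12 of 18 for fibrillar collagens and 5 of 19 for the others, against 24.7% of all probe sets above background. With each array centred on its median over probe sets above background, these counts became 9 of 25 collagen genes, against 28.8% of all genes above background, and 10 of 18 fibrillar probe sets, against 28.8% of all probe sets above background. With this centring Col3a1 and Col6a1 were lowest in replicate 3 and no longer in replicate 2. Probe sets of a gene share a transcript and a library and are not separate evidence.

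Replicate 2 minus the mean of replicates 1 and 3 had a median of -0.052 over the fibrillar genes above background and 0.017 over the other collagen genes, against 0.0096 over all genes above background. For single genes above background, the 5th and the 95th percentile of the departure were -0.105 and 0.111. For Col1a1 the departure was -0.113, for Col5a1 -0.058, for Col1a2 -0.055, for Col5a2 -0.049 and for Col3a1 -0.026, so among these 5 genes only Col1a1 lay outside that span. Col11a1 at -0.238 and Col2a1 at -0.203 lay further out, and the means of both genes were within 0.5 of the limit. In Col2a1 it was replicate 1 that stood apart at 8.19, with replicates 2 and 3 level at 7.79 and 7.78. Col5a3, Col11a2 and Col27a1 went the other way, at 0.101, 0.102 and 0.038. For Col27a1 this held only on the probe set with the highest mean, since its other probe set, also above background, was at -0.1715. Among the other collagens the departures ran from -0.124 for Col4a5 to 0.168 for Col12a1.

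**Figure D3:**
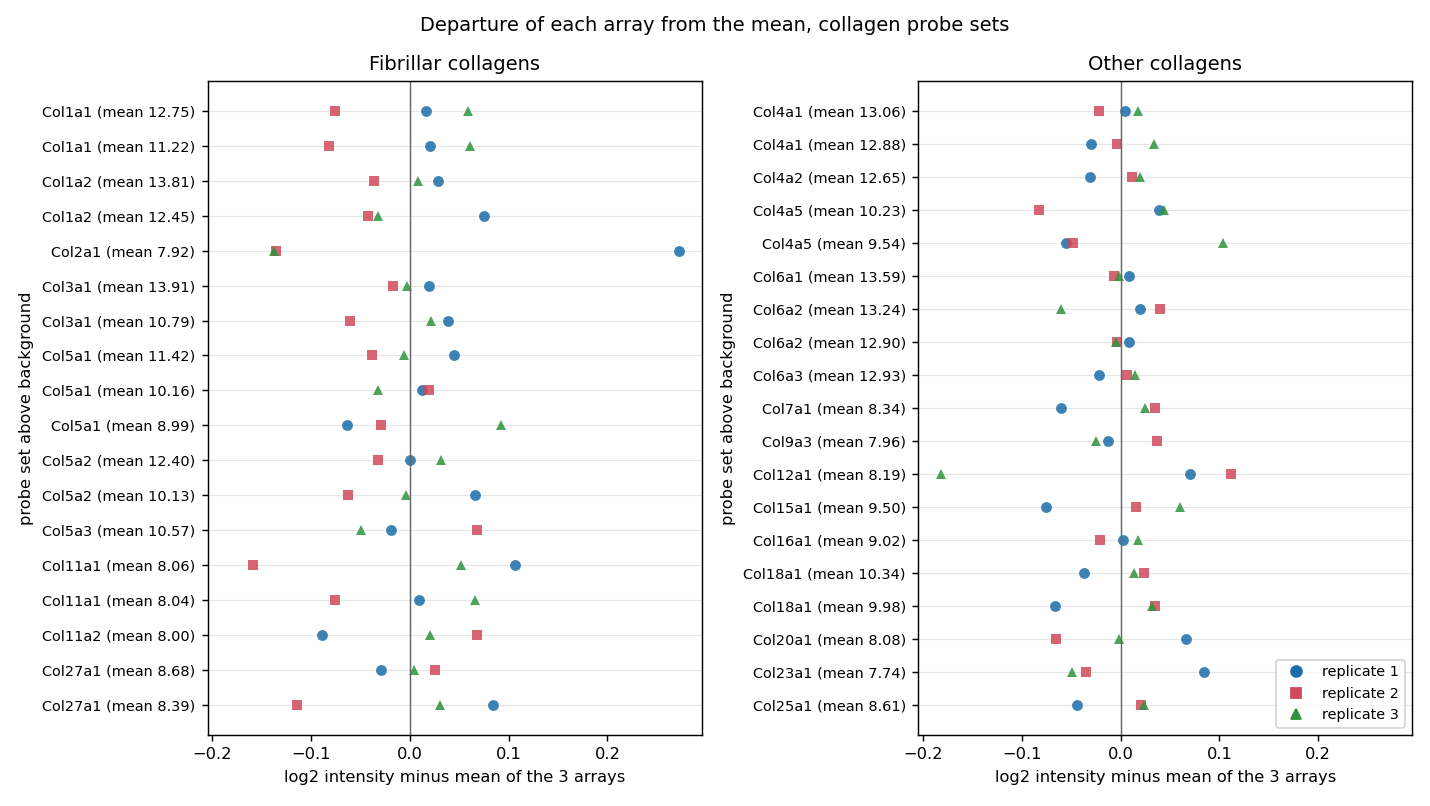
Departure of each array from the mean of the 3 arrays (x axis, log2 intensity) for the 37 collagen probe sets above background (y axis, with the mean of each), fibrillar collagens on the left and other collagens on the right. Replicate 2 is the leftmost point in 12 of 18 fibrillar and 5 of 19 other probe sets.

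Markers of preadipocytes and fibroblasts were also low in replicate 2. All 6 such markers above background were lowest in replicate 2 (Dlk1, Pdgfra, Thy1, Vim, S100a4 and Fn1), against 24.9% of all genes above background, with a median departure of -0.093 and a range from -0.291 to -0.0085. Replicates 2 and 3 were nearly level in Vim (13.580 and 13.583) and S100a4 (11.397 and 11.398), as were replicates 1 and 2 in Fn1 (11.966 and 11.963). Array medians over probe sets above background lay further apart, at -0.025, 0.0049 and 0.0205 from their mean in replicates 1, 2 and 3. The lowest array of Vim, S100a4 and Fn1 therefore depends on centring. With arrays centred on these medians, replicate 3 was lowest in each of them. Dlk1, Pdgfra and Thy1 stayed lowest in replicate 2, against 28.8% of all genes above background with this centring. Pdgfra, a receptor of mesenchymal progenitors, had 10.91 in replicate 1, 10.63 in replicate 2 and 10.92 in replicate 3. Dlk1, an inhibitor of adipogenesis that preadipocytes lose as they differentiate, had 13.33, 13.13 and 13.26. The 2 further measured markers, Cd34 and Gata3, were not above background. Of the 6 adipocyte markers above background, 1 was lowest in replicate 2, with a median departure of -0.0028 and a range from -0.0165 to 0.028. The signal ratio of the 3′ to the 5′ control probe sets, a sign of RNA integrity, was 1.70 in replicate 1, 1.585 in replicate 2 and 1.54 in replicate 3 on the actin controls, and lay between 1.10 and 1.14 on those of Gapdh. In bulk samples, fewer cells of a type and less RNA per cell cannot be told apart, and the part of these markers in the collagen values was not tested.

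Pairs of arrays were also compared over the whole family. Of the 25 collagen genes above background, 13 were higher in replicate 3 than in replicate 1 (52.0%), against 59.2% of all genes above background. In replicate 2 against replicate 1 it was 12 (48.0%), against 61.9%, and in replicate 3 against replicate 2 it was 15 (60.0%), against 51.1%.

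Genes that act on collagens were mostly above background. Of 57 listed genes 52 were measured, and 36 of these were above the limit (69.2%), against 54.4% of all genes. For proline hydroxylation, which stabilises the helix, 8 of 10 genes were above, among them P4hb, the beta subunit of prolyl 4-hydroxylase (13.20, 13.23 and 13.23), with Ppib, a proline isomerase, and Crtap, a partner of prolyl 3-hydroxylase, averaging 12.16 and 11.84. P4ha3 and P3h2 were not above background. For lysine hydroxylation and glycosylation 4 of 5 were above, among them Plod3, Plod1 and Colgalt1, and Colgalt2 was not. Of the chaperone and export genes 4 of 5 were above. Serpinh1, the collagen chaperone HSP47, had 12.40, 12.33 and 12.30, Sparc, a collagen-binding protein, averaged 13.67 and Mia3, which helps load procollagen into transport carriers, 10.29. Mia2 was not above background.

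Outside the cell, the 2 propeptide trimming genes above background of 6 measured were Bmp1, the procollagen C-proteinase, and its enhancer Pcolce, with means of 9.38 and 13.30, while Tll1, Tll2, Adamts3 and Pcolce2 were not above background. All 4 measured lysyl oxidases were above the limit, against 54.4% of all genes. Lox, the enzyme that starts crosslinking, had 11.72 in replicate 1, 11.52 in replicate 2 and 11.75 in replicate 3, and Loxl1 and Loxl3 averaged 12.13 and 9.17. All 7 fibril-binding proteins were above background. Of these, Bgn had 13.69, 13.75 and 13.72, whereas Dcn, a proteoglycan that regulates fibril growth, had 12.74, 12.58 and 12.70 and Postn, a matricellular protein, had 12.86, 12.76 and 12.81.

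Of the receptors, 4 of 8 were above background, and of the collagen-degrading genes 3 of 7, both near the 54.4% of all genes. The receptors above it included Ddr1, a collagen-activated tyrosine kinase, Itgb1, the common beta chain of collagen-binding integrins, and Mrc2, which takes up collagen for degradation. The integrin alpha chains Itga1, Itga2 and Itga10 and the inhibitory receptor Lair1 were not above background. The degrading genes above background were Mmp2, Mmp14 and Ctsk, with means of 12.45, 11.36 and 9.24, and Mmp8, Mmp9, Mmp13 and Fap were not. In the same 36 genes 16 were lowest in replicate 2, against 24.9% of all genes above background. By step these were 2 of 8 genes of proline hydroxylation, 0 of 4 of lysine hydroxylation and glycosylation, 1 of 4 of chaperones and export, 2 of 2 of propeptide trimming, 2 of 4 lysyl oxidases, 5 of 7 fibril-binding genes, 3 of 4 receptors and 1 of 3 degrading genes, and no difference between steps was tested. Lum, a fibril-binding proteoglycan named after its values were seen, had 10.61, 10.30 and 10.44, the most negative departure of replicate 2 among these genes at -0.226. Fn1 is on both the fibril-binding and the fibroblast marker list. The counts of processing genes lowest in replicate 2 were not repeated with centred arrays. In some of the genes counted, replicates 2 and 3 were nearly level, as in Loxl1 (12.109 and 12.113) and Fmod (7.752 and 7.760).

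**Figure D4:**
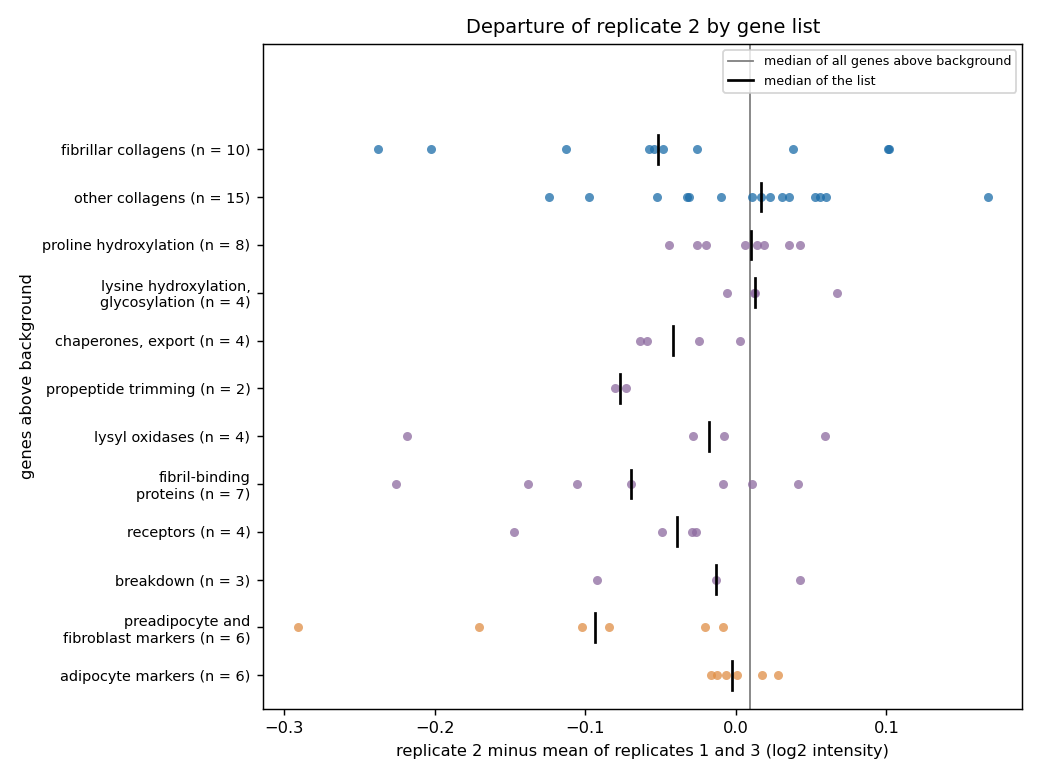
Replicate 2 minus the mean of replicates 1 and 3 (x axis, log2 intensity) for genes above background, by gene list (y axis). Points are genes, black bars list medians and the grey line the median of all genes above background, 0.0096, with the fibrillar collagens at a median of -0.052 and the preadipocyte and fibroblast markers at -0.093.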

How the data were processed

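Labelled cRNA of 3 glucose oxidase samples (1 group, replicates 1 to 3) was hybridised to mouse4302 arrays. The deposited intensities of probe sets had been corrected for background and normalised by the authors with RMA in affyPLM (version not given in the sources used here). They are linear although RMA usually returns log2 values, so log2 was taken as deposited, and any later scaling is unknown. Names of probe sets came from the platform annotation (34958 with 1 gene, 932 with several, 9211 with none), and the 42 collagen symbols matched RefSeq on GRCm38.p6 through Entrez identifiers with 0 changed. Col6a6 and Col28a1 were not analysed here. Each gene was represented by its probe set with the highest mean. With 1 group, no test between conditions was possible, and levels were set against the limit without a test.

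Values in every array were given for collagen genes above background and the 3 nearest below it, the others by class and range. For the lists of genes acting on collagens, those not above background and up to 3 with the highest levels in each list were named. The 5 largest SDs and the 5 widest gaps between probe sets were also given. The members and lists were chosen with earlier results of these data known, and the assemblies, promoter motifs and array pattern after the values were seen. The calls above background and the naming of the lowest array were tested on simulated data. The simulated shift of replicate 2 was larger than the departures reported here. That run therefore does not show how reliably the lowest array is named where departures are small. Alternatives were other limits, probe set choices, centring, a log2 offset of 16 and leaving out each array. Python 3.11.15, pandas 2.3.3, numpy 2.4.6 and matplotlib 3.10.9 were used.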

Additional observations from a re-analysis of the deposited data

How the results depend on the processing

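The count of 25 collagen genes above background stayed within 18 to 27 under the alternatives run. It was 18 with the 99th percentile as the limit (without Col2a1, Col9a3, Col11a1, Col11a2, Col12a1, Col20a1 and Col23a1), 27 with the 90th percentile (with Col6a4 and Col9a1), 23 with the limit taken from defensin and keratin-associated genes (without Col2a1 and Col23a1), 20 with each gene at its median probe set (without Col9a3, Col12a1, Col20a1, Col23a1 and Col25a1), 24 without probe sets that can cross-hybridise (without Col20a1), and 25 when any 1 array was left out. The share of all genes above background was not computed under these alternatives. Whether the collagen share stayed near that of the array is therefore not known for them. Levels of 16 of the 42 genes moved by over 1.5-fold with the median of probe sets. The median SD of collagen genes, 0.0418, became 0.0511 with the median of probe sets and 0.0636 with all 42 collagen genes, which adds genes near or below background, and ran from 0.0277 without replicate 1 to 0.0456 without replicate 3. Collagen genes higher in replicate 3 than in replicate 1 numbered 13 of the 25 above background and 25 of all 42. The matching share of all genes, with those not above background included, was not computed. In alternatives chosen after seeing the data, 10 of 18 fibrillar probe sets were lowest in replicate 2 with arrays centred on the median of probe sets above background, against 28.8% of all probe sets above background, and 12 with arrays centred on the median of all probe sets or of the adipocyte markers. No paired analysis was possible because there is a single group. The 3 arrays limit the precision, values near the limit have little signal over background, and how much of a low value is cross-hybridisation was not tested.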
